A study of Mus musculus with 20 samples.

Results

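Adult-only H3K4me3 regions are stretches of the genome at which trimethylation of histone H3 at lysine 4 was listed as a peak in adult but not in fetal hematopoietic stem cells (HSCs) of the mouse. They were selected on the authors' peak calls for H3K4me3, as the peaks of the adult H3K4me3 list on chromosomes 1 to 19 that shared not even 1 bp with a peak of the fetal H3K4me3 list. The rule found 1180 such peaks among 16156, or 7.30% (95% Clopper-Pearson interval 6.91 to 7.72). The other 14976 adult peaks are called shared below. Because the rule reads the authors' peak calls, an adult-only region is one without a fetal peak call. Fetal signal below the authors' calling threshold was not measured here.

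Fetal HSCs came from the livers of B6129SF1 embryos at embryonic day 14.5, and adult HSCs from the bone marrow of B6129SF1 mice aged 6 to 8 weeks. At both stages the cells were sorted by the same surface markers, with lineage markers and CD135 absent and Sca1 and cKit present, and each chromatin immunoprecipitation followed by sequencing (ChIP-seq) used 50000 cells, per the labels' protocols. This gate holds multipotent progenitors beside HSCs, as general background. No genotype, treatment or transgene is named in the labels, which give 2 replicates for each of 4 histone marks and input at each stage. The deposited lists hold 1 set of peaks per mark and stage, titled as combined, so no value below has a replicate error. No test between stages was possible with 1 list each, and stage cannot be told apart from library or peak calling. Ranges given in brackets after a share are 95% Clopper-Pearson intervals over peaks. They cover counting error only, and neighbouring peaks are not independent.

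H3K4me3 is placed by methyltransferase complexes of the COMPASS family and is found mainly at the start sites of genes that are active or poised for activity. H3K27ac marks active promoters and enhancers, and H3K4me1 marks enhancers and the flanks of promoters. H3K27me3 is placed by a Polycomb repressive complex and marks repressed chromatin. A region with both H3K4me3 and H3K27me3 is called bivalent. In the fetal liver HSCs divide and expand in number, whereas in the adult marrow most of them are quiescent. The peaks are given by position in mm9, 1-based, the build in the submitters' processing notes. No gene annotation of that build was used here, so peaks were not assigned to genes, the sorted cells were not checked against promoters of marker genes, and no sequence is printed.

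Adult-only peaks were narrow and low in score. Their median width was 930 bp (quartiles 819 and 1088 bp, range 360 to 3687 bp), and that of shared adult peaks was 1886 bp (quartiles 1397 and 2407 bp). The score is the authors' own value for each peak, without a stated unit, and is used here only to rank peaks within the adult list. The median score was 86.1 for adult-only peaks (range 50 to 2150) and 1718 for shared peaks. No adult-only peak reached 3100, the score at which values pile up, whereas 26.6% of shared peaks did. These values come from the lists that the rule used and are a description only.

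**Figure D1:**
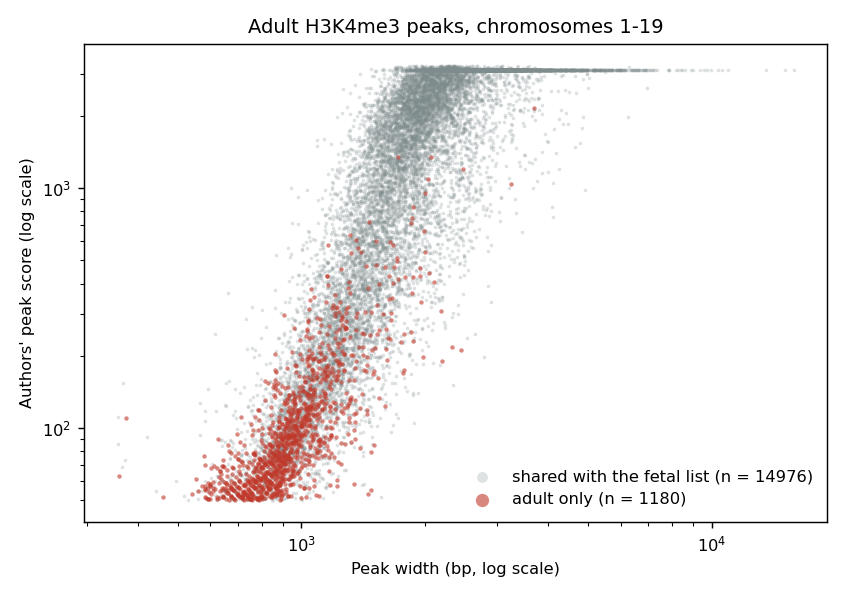
Width in bp (x axis, log scale) and authors' score (y axis, log scale) of the adult H3K4me3 peaks on chromosomes 1-19, each point 1 peak. The 1180 adult-only peaks sit at the narrow, low-scoring end of the cloud, with medians of 930 bp and 86.1, against 1886 bp and 1718 for the 14976 shared peaks.

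The lowest quartile of the adult list by score, which ends at 276.4, held 1095 of the 1180 adult-only peaks, or 92.8%. In that quartile 27.1% (25.7 to 28.5) of peaks were adult-only. The next quartile held 84 adult-only peaks, the third 1 and the highest none of 4039 peaks. In the lowest range, from 50 to 75, adult-only peaks were 50.3% (47.0 to 53.5) of 945 peaks. From 300 up they were 0.604% (0.473 to 0.760) of 11926. Within the ranges of score below 300 the median widths of both groups were close. They were 803 bp for adult-only and 839 bp for shared peaks from 50 to 75, and 1017 and 1037 bp from 100 to 150. From 300 up, where shared peaks reach far higher scores, the medians were 1518 and 2071 bp. At the edge of the rule, the adult-only peak nearest to a fetal peak, on chromosome 4 from 133229527 to 133230467 with a score of 58.73, lay 54 bp from it. The shared peak with the least overlap, on chromosome 10 from 94152927 to 94153496 with a score of 54.56, shared 13 bp with the fetal list.

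Because score alone separates adult-only from most shared peaks, the other marks are given beside those of shared peaks in the same lowest quartile of score. That quartile held 2944 shared peaks. Its scores were not equal in both groups, with medians of 81.1 for adult-only and 133 for shared peaks.

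H3K27ac was listed at adult-only H3K4me3 regions at similar shares in both stages. Of the 1180 peaks 414, or 35.1% (32.4 to 37.9), overlapped fetal H3K27ac, against 75.4% of all adult H3K4me3 peaks. Adult H3K27ac was found at 394, or 33.4% (30.7 to 36.2), against 76.1%. In the lowest quartile of score, adult H3K27ac was present at 31.1% (28.4 to 34.0) of adult-only and 31.6% (29.9 to 33.3) of shared peaks. Fetal H3K27ac was present there at 34.5% (31.7 to 37.4) and 39.5% (37.7 to 41.3). The fetal H3K27ac list is the longer one. With equal numbers of top-scoring H3K27ac peaks from both stages the order of the stages turned, with fetal H3K27ac at 26.0% and adult H3K27ac at 33.4% of adult-only peaks. H3K27ac in the adult list alone was then at 14.5% and in the fetal list alone at 7.12%. With only the better-scoring peaks of each H3K27ac list these shares were 1.78% and 8.47%, so the balance between the stages depended on how the lists were limited.

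Most adult-only regions with adult H3K27ac also had a fetal H3K27ac peak, namely 67.5% (62.6 to 72.1) of the 394, which is a lower share than the 92.9% (92.5 to 93.4) among shared peaks with adult H3K27ac. Within the lowest quartile of score the shares were 69.2% (64.0 to 74.1) and 81.4% (78.8 to 83.9). H3K27ac was listed at both stages for 266 peaks, or 22.5% (20.2 to 25), against 70.1% of all adult H3K4me3 peaks. It was in the fetal list alone for 148, or 12.5% (10.7 to 14.6), against 5.31%, and in the adult list alone for 128, or 10.8% (9.13 to 12.8), against 5.99%. In the lowest quartile of score, H3K27ac in the adult list alone was found at 9.59% (7.91 to 11.5) of adult-only and 5.88% (5.05 to 6.79) of shared peaks, so these intervals did not overlap. H3K27ac in the fetal list alone was found there at 13.0% (11.0 to 15.1) and 13.7% (12.5 to 15.0), with overlapping intervals. The mirror case is the 1514 fetal H3K4me3 peaks with no adult H3K4me3 peak. There H3K27ac in the adult list alone was at 1.59% (1.02 to 2.35), and H3K27ac in the fetal list alone was at 15.5% (13.7 to 17.4). The corresponding shares of the other fetal H3K4me3 peaks are not given here, and the mirror case was not matched for score.

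The balance between the stages differed with the score of the adult-only peak. From 50 to 75, adult H3K27ac was at 26.5% (22.6 to 30.7) of 475 peaks and fetal H3K27ac at 33.7% (29.4 to 38.1). Of these peaks 23 had H3K27ac in the adult list alone and 57 in the fetal list alone. From 300 up, adult H3K27ac was at 65.3% (53.1 to 76.1) of 72 peaks and fetal H3K27ac at 40.3% (28.9 to 52.5), with 22 peaks in the adult list alone and 4 in the fetal list alone. Fetal H3K27ac was between 32.0% and 40.3% in all 5 ranges of score. Shared peaks turned as well, but only from 300 up. From 50 to 75, 18 of 470 shared peaks were in the adult list alone and 70 in the fetal list alone. From 300 up these were 649 and 276 of 11854. In the range from 150 to 300, 40 of 175 adult-only peaks were in the adult list alone and 20 in the fetal list alone. Of the 1400 shared peaks in that range, these were 119 and 166. The shares of shared peaks with adult and fetal H3K27ac from 300 up were 91.8% and 88.7%, and their scores there are far higher. These ranges of score were set with the values known. The H3K27ac peak also reached a shared H3K4me3 peak for 9.18% (6.58 to 12.4) of the adult-only peaks with fetal H3K27ac. For those with adult H3K27ac this share was 4.31% (2.53 to 6.82). These H3K27ac peaks had median widths of 1827 and 1275 bp, and the median distance of adult-only to shared peaks was 24473 bp. The shares have no comparison group, because shared peaks meet the condition by definition.

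**Figure D2:**
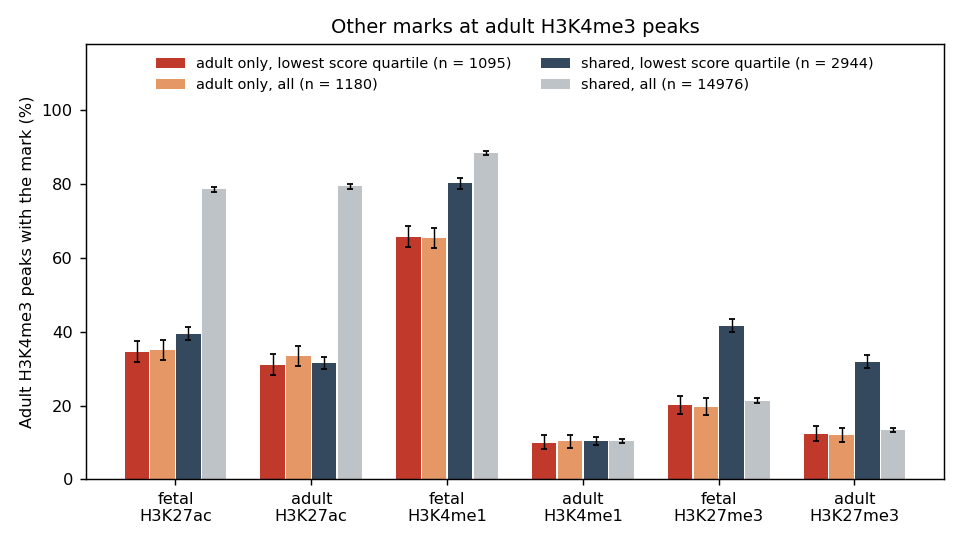
Share of adult H3K4me3 peaks (y axis, %) that overlap each of the other marks in each stage (x axis), for adult-only and shared peaks, all or in the lowest quartile of score. Bars are shares and whiskers 95% Clopper-Pearson intervals for counting error. Fetal H3K27me3 was at 20.1% of adult-only and 41.7% of shared peaks of the lowest quartile, and adult H3K27ac at 31.1% and 31.6%.

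H3K4me1, the mark of primed and active enhancers, was listed in fetal cells at most adult-only regions. Fetal H3K4me1 overlapped 773 of the 1180 peaks, or 65.5% (62.7 to 68.2), against 86.8% of all adult H3K4me3 peaks. In the lowest quartile of score it was at 65.8% (63.0 to 68.7) of adult-only and 80.3% (78.8 to 81.7) of shared peaks. Adult H3K4me1 was at 121, or 10.3% (8.58 to 12.1), against 10.5%, and 109 of these 121 also had fetal H3K4me1, which is 9.24% of adult-only peaks against 10.3% of all. Fetal H3K4me1 without the adult mark was at 664 adult-only peaks, or 56.3% (53.4 to 59.1), against 76.6%, and the adult mark alone at 12, or 1.02% (0.527 to 1.77), against 0.217%. The adult H3K4me1 list is much shorter, with 12502 peaks on these chromosomes of 193 bp median width, against 92339 of 430 bp in the fetal list. With equal numbers of top-scoring H3K4me1 peaks, 19% of adult-only regions had fetal H3K4me1. H3K4me1 was the only other fetal mark at 234 adult-only peaks, or 19.8% (17.6 to 22.2), against 5.74% of all adult peaks. In the lowest quartile of score the shares were closer, at 20.2% (17.8 to 22.7) of adult-only and 13.1% (11.9 to 14.4) of shared peaks. Of the 234 regions 71, or 30.3% (24.5 to 36.7), had H3K27ac without H3K27me3 in the adult list and 14 had H3K4me1 alone. None of the 3 other marks was in the adult lists at 149, or 63.7% (57.2 to 69.8). Among all shared peaks with fetal H3K4me1 alone, 35.0% (31.5 to 38.7) had adult H3K27ac without H3K27me3 and 61.7% (57.9 to 65.3) had no other adult mark. Among peaks of the lowest quartile of score, such adult H3K27ac was at 28.1% (22.2 to 34.5) of 221 adult-only and 15.0% (11.6 to 19) of 386 shared peaks. No other adult mark was there at 65.6% (58.9 to 71.9) and 79.8% (75.4 to 83.7).

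Prior Polycomb marking was found at a minority of adult-only regions, and at a lower share than among shared peaks in the same ranges of score below 300. Fetal H3K27me3 overlapped 233 of the 1180 peaks, or 19.7% (17.5 to 22.1), against 21.2% of all adult H3K4me3 peaks. The overall shares are thus close, but in the lowest quartile of score fetal H3K27me3 was at 20.1% (17.8 to 22.6) of adult-only and 41.7% (40.0 to 43.6) of shared peaks. The gap was present in each of the 4 ranges of score below 300. From 50 to 75 the shares were 18.7% (15.3 to 22.5) and 39.8% (35.3 to 44.4), and from 150 to 300 they were 19.4% (13.8 to 26.1) and 44.4% (41.7 to 47.0). From 300 up, where shared peaks reach far higher scores, they were 18.1% (9.98 to 28.9) and 15.9% (15.2 to 16.5). When the H3K4me3 lists of both stages were cut to their better-scoring parts, 374 peaks counted as adult-only. All but 1 of them overlapped a fetal H3K4me3 peak below the cut, so they are shared peaks by the rule used here. For that other set the lowest-quartile difference was 19.4 percentage points in place of -21.7, which cannot speak to the adult-only peaks described here. Among fetal H3K4me3 peaks with no adult peak, fetal H3K27me3 was at 35.5% (33.1 to 38.0), against 21.3% (20.7 to 22.0) of the other fetal H3K4me3 peaks, without a match for score.

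**Figure D3:**
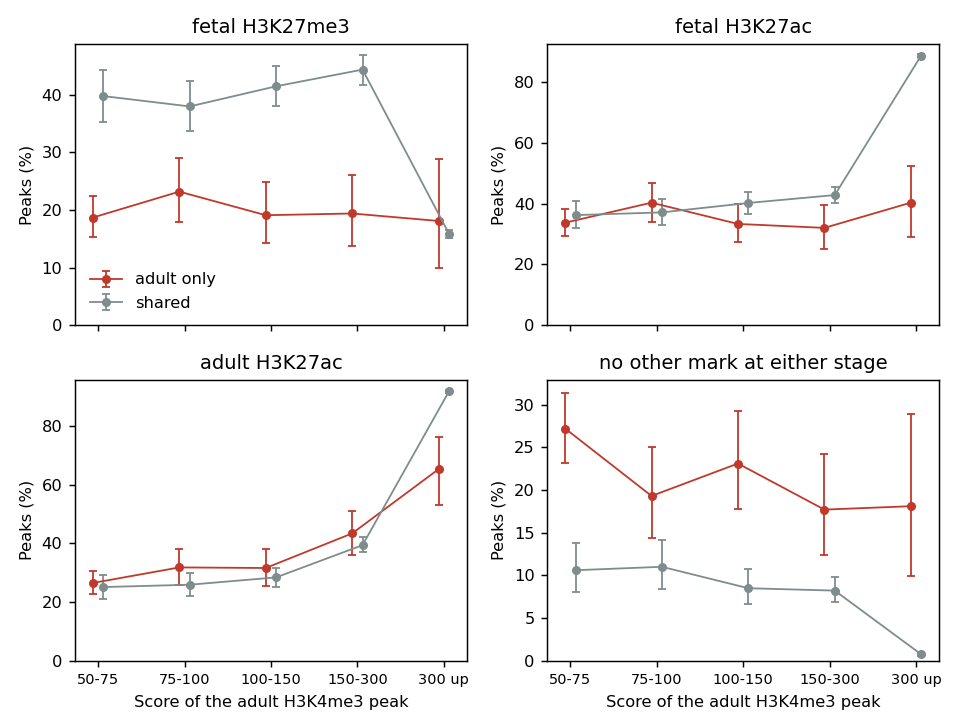
Share of adult-only and shared adult H3K4me3 peaks (y axes, %) with fetal H3K27me3, fetal H3K27ac, adult H3K27ac or no other mark at either stage, by the score of the H3K4me3 peak (x axes). Points are shares and whiskers 95% Clopper-Pearson intervals. Below a score of 300 fetal H3K27me3 stayed lower and the share with no other mark stayed higher at adult-only peaks, while adult H3K27ac was most frequent from 300 up in both groups.

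Where fetal H3K27me3 was present it usually covered the whole region, as at shared peaks of low score. It covered at least 50% of 212 of the 233 peaks and all of 180. Within the lowest quartile of score it covered all of 78.2% (72.1 to 83.5) of the adult-only and 74.6% (72.1 to 77.0) of the shared peaks that had it. An adult H3K27me3 peak was listed as well at 140 of them, or 60.1% (53.5 to 66.4), and at 61.1% (59.3 to 62.8) of the shared peaks with fetal H3K27me3. In the lowest quartile of score, 61.8% (55.0 to 68.3) of adult-only and 74.9% (72.4 to 77.3) of shared peaks with fetal H3K27me3 had the adult mark too. The other 93, or 7.88% (6.41 to 9.57) of all adult-only peaks, had fetal H3K27me3 without adult H3K27me3. The corresponding share of all adult H3K4me3 peaks was 8.26%. In the lowest quartile of score the shares were 7.67% (6.16 to 9.41) of adult-only and 10.5% (9.38 to 11.6) of shared peaks, with intervals that just overlapped. Adult H3K27me3 was at 140 adult-only peaks, or 11.9% (10.1 to 13.8), against 13.2% of all adult H3K4me3 peaks. In the lowest quartile of score it was at 12.4% (10.5 to 14.5) of adult-only and 31.9% (30.2 to 33.6) of shared peaks. All 140 adult-only peaks also had the fetal mark, and H3K27me3 at both stages was at 12.9% of all adult H3K4me3 peaks. Within the lowest quartile of score H3K27me3 at both stages was at 12.4% (10.5 to 14.5) of adult-only and 31.3% (29.6 to 33.0) of shared peaks. H3K27me3 in the adult list alone was found at none of the 1180 peaks, which allows a share of up to 0.312%, against 0.309% of all adult peaks. The 140 regions with H3K27me3 at both stages lay in wider fetal H3K27me3 domains, with a median of 9026 bp after joining peaks within 1 kb, than the 93 without adult H3K27me3, with a median of 2512 bp. The medians for shared peaks were 4988 and 2128 bp, and in the lowest quartile of score 5607 and 2524 bp. The adult H3K27me3 peaks on these chromosomes covered 9.31 Mb in all and the fetal ones 37.8 Mb, and the part of this difference in the counts above was not tested.

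Of the 140 adult-only regions that were bivalent in the adult, 117 had fetal H3K4me1, 10 had adult H3K27ac and 7 had fetal H3K27ac. Of the 93 others, 63 had fetal H3K4me1, 13 had adult H3K27ac and 6 had fetal H3K27ac. Adult H3K27ac was thus at 7.14% (3.48 to 12.7) and 14.0% (7.66 to 22.7), with overlapping intervals. Among all shared peaks of these classes, adult H3K27ac was at 34.4% and 64.8%, fetal H3K27ac at 25.2% and 52.5%, and fetal H3K4me1 at 91.9% and 86.7%. Within the lowest quartile of score, fetal H3K4me1 was at 83.1% (75.7 to 89.0) of adult-only and 89.0% (86.8 to 91.0) of shared peaks with H3K27me3 at both stages. Adult H3K27ac was at 5.88% (2.57 to 11.3) and 11.3% (9.32 to 13.5), and fetal H3K27ac at 4.41% (1.64 to 9.36) and 9.34% (7.54 to 11.4). Of the peaks of this quartile with the fetal mark alone, adult H3K27ac was at 8.33% (3.42 to 16.4) of adult-only and 17.2% (13.2 to 21.9) of shared peaks. Fetal H3K4me1 was there at 67.9% (56.8 to 77.6) and 76.6% (71.5 to 81.2). Fetal H3K27ac was there at 7.14% (2.67 to 14.9) and 15.3% (11.4 to 19.8), and each of these pairs had overlapping intervals. A pattern with opposite marks at the stages, fetal H3K27me3 without H3K27ac and adult H3K27ac without H3K27me3, was found at 12 adult-only peaks, or 1.02% (0.527 to 1.77), against 1.42% of all adult H3K4me3 peaks. In the lowest quartile of score it was found at 6 adult-only peaks, or 0.548% (0.201 to 1.19), and at 30 shared peaks, or 1.02% (0.689 to 1.45), with overlapping intervals. Among the 72 adult-only peaks with scores from 300 up, 6 had it, or 8.33% (3.12 to 17.3), and of the 11854 shared peaks in that range 1.56% (1.35 to 1.80). Of these 6, 3 belong to 1 run on chromosome 17 that is described below, and without that run the share was 4.35% (0.906 to 12.2), an interval that contains the share of shared peaks.

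Many adult-only regions carried none of the other 3 marks at either stage. There were 270, or 22.9% (20.5 to 25.4), against 3.97% of all adult H3K4me3 peaks. In the lowest quartile of score the shares were 23.1% (20.6 to 25.7) for adult-only and 9.41% (8.38 to 10.5) for shared peaks. The 3 widest, by the rule for named peaks, were on chromosome 2 from 65008238 to 65010087 with a score of 716.92, on chromosome 4 from 33375911 to 33377585 with a score of 579.68, and on chromosome 11 from 48875078 to 48876710 with a score of 343.45. Each lay between 13009 and 65300 bp from the nearest shared H3K4me3 peak. In the adult lists alone, 622 adult-only peaks, or 52.7% (49.8 to 55.6), had no other mark, against 11.4% (10.9 to 11.9) of shared peaks. The shares in the lowest quartile of score were 54.2% (51.2 to 57.1) and 38.3% (36.5 to 40.1).

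Adult-only regions were spaced from shared H3K4me3 peaks about as shared peaks are from each other. The median distance between edges was 24473 bp (quartiles 7723 and 70414 bp, range 8.00 to 1902998 bp), and 25160 bp (quartiles 9305 and 60211 bp) between neighbouring shared peaks. Within 5 kb of a shared peak lay 218 adult-only peaks, or 18.5% (16.3 to 20.8), against 15.6% (15.0 to 16.1) of shared peaks. Within 100 kb lay 82.4% (80.1 to 84.5) of adult-only and 86.1% (85.5 to 86.6) of shared peaks. The distance to the nearest fetal H3K4me3 peak had a median of 22446 bp, and 64 adult-only peaks lay within 1 kb of one.

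**Figure D4:**
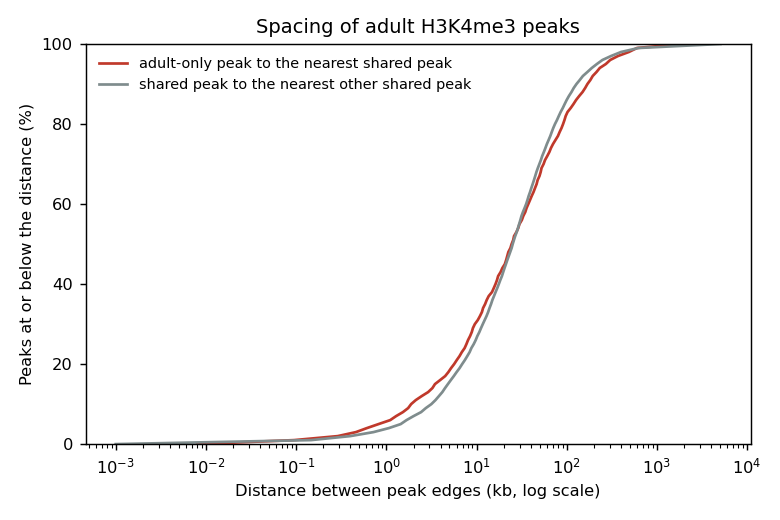
Cumulative share of peaks (y axis, %) by the distance between edges (x axis, kb, log scale) to the nearest shared adult H3K4me3 peak. The curves of adult-only and of shared peaks cross just above their medians of 24473 and 25160 bp. Within 5 kb lay 18.5% of adult-only and 15.6% of shared peaks, and within 100 kb 82.4% and 86.1%.

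H3K4me1 and H3K27ac were more frequent at adult-only regions near shared peaks, and the shares with H3K27me3 had overlapping intervals at all distances. Fetal H3K4me1 was at 83.0% (77.4 to 87.8) of the 218 adult-only peaks within 5 kb of a shared peak, at 68.6% (64.7 to 72.4) of the 574 from 5 to 50 kb and at 51.0% (45.9 to 56.1) of the 388 beyond 50 kb. Adult H3K27ac was at 45.9% (39.1 to 52.7), 37.8% (33.8 to 41.9) and 19.8% (16.0 to 24.2), and fetal H3K27ac at 47.2% (40.5 to 54.1), 38.7% (34.7 to 42.8) and 22.9% (18.8 to 27.4). Fetal H3K27me3 was at 19.3% (14.3 to 25.1), 20.6% (17.3 to 24.1) and 18.8% (15.0 to 23.1). Median scores hardly differed between these classes, at 86.5, 85.9 and 85.3, and median widths were 948, 930 and 914 bp. Shared peaks were not split by distance, so whether these differences are particular to adult-only peaks was not tested. The adult-only peak farthest from a shared one was on chromosome 6 from 79969283 to 79970213, 1902998 bp away, and fetal H3K27me3 covered 50.1% of it. The next, on chromosome 17 from 93467235 to 93468080 and from 93601545 to 93602359, lay 1680020 and 1545741 bp away, the first with no other mark and the second under fetal H3K27me3 along its whole width and adult H3K27me3 over 77.8% of it.

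Most adult-only regions had no other adult-only region within 50 kb. The median distance from an adult-only peak to the next one was 434509 bp. Both measures depend on the number of peaks, and no set of adult peaks of equal number and score was measured beside them. The nearest adult H3K4me3 peak was itself adult-only for 127 adult-only peaks, or 10.8% (9.05 to 12.7). This was a higher share than the 7.47% (7.05 to 7.90) of shared peaks and the 7.30% of the list that is adult-only. Joining adult-only peaks within 50 kb gave 71 runs of at least 2 members with 150 peaks, or 12.7% (10.9 to 14.7). Of these runs 6 had 3 or more members and 1 had more than 3. The share of adult-only peaks among the adult H3K4me3 peaks of a chromosome ran from 5.6% (4.36 to 7.07) on chromosome 7 to 9.89% (8.02 to 12.0) on chromosome 10, with a median over the 19 chromosomes of 7.33%.

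The largest run held 5 adult-only peaks in 98203 bp of chromosome 17, from 35479218 to 35577420. As general background, this stretch belongs to the major histocompatibility complex of the mouse, the H2 complex, whose class I genes present peptides to T cells and natural killer cells and form a family of close copies. How the authors treated reads that match several copies is not given in the sources used here, and its part in these peaks was not tested. The peaks were not assigned to single H2 genes. Fetal H3K27me3 overlapped all 5 peaks and covered between 93.5% and 100% of each, and fetal H3K27ac overlapped none.

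The 5 peaks fell into a left pair and a right group of 3. The left pair, from 35479218 to 35480391 and from 35495865 to 35496964, had scores of 169.3 and 189.64. Adult H3K27me3 covered 98.4% and 71.5% of them, and no H3K27ac was listed at either stage. The right group, from 35530798 to 35532439, from 35561551 to 35563268 and from 35575386 to 35577420, had scores of 596.38, 1345.03 and 1094.47. These ranked 16, 3 and 5 among all adult-only peaks. Adult H3K27ac covered 58.9%, 89.5% and 79.9% of them and adult H3K27me3 none, so all 3 were among the 12 regions with opposite marks at the stages.

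The run also contained 1 shared H3K4me3 peak, from 35515859 to 35517969, whose adult score was 3100. Fetal H3K27me3 covered 96.2% of it and fetal H3K27ac 71.8%, while in the adult lists H3K27ac covered 87.4% and H3K27me3 none. Over the whole run, H3K27me3 covered 36513 bp in the fetal list and 5566 bp in the adult list, that is 37.2% and 5.67%. H3K27ac covered 1515 and 6164 bp, and H3K4me3 1458 and 9780 bp. Over chromosomes 1 to 19 the H3K27me3 lists covered 37.8 Mb in the fetus and 9.31 Mb in the adult, and the H3K27ac lists 49.6 and 32.8 Mb. Within 1 Mb of the run, 9 of 76 adult H3K4me3 peaks were adult-only, or 11.8% (5.56 to 21.3). Without these 9, each of the 6 shares of a mark at adult-only peaks lay within the interval given for it above, with fetal H3K27me3 at 19.3% and adult H3K27ac at 33.3%.

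**Figure D5:**
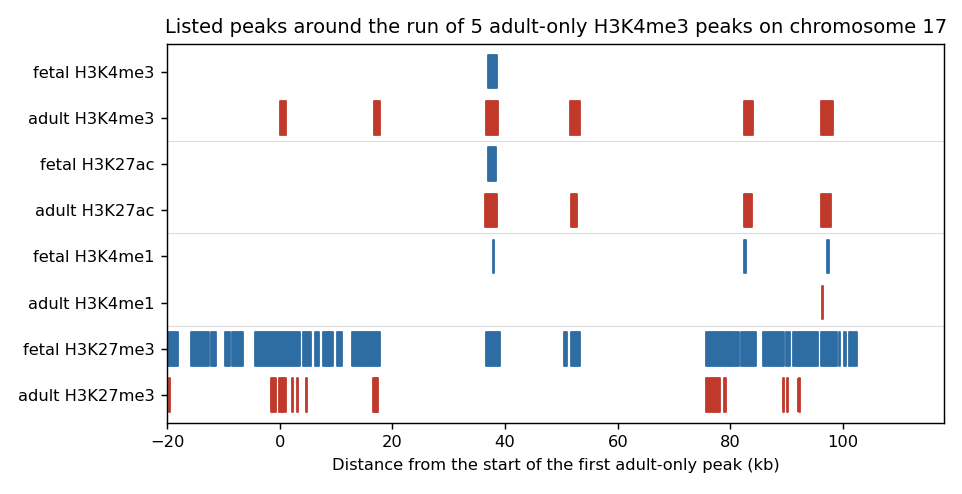
Peaks of the 8 lists (rows) along the run of 5 adult-only H3K4me3 peaks on chromosome 17 with 20 kb on either side; the x axis gives kb from the start of the first adult-only peak. The fetal H3K4me3 row has 1 peak and the adult row 6, and the fetal H3K27me3 row covers all of these sites while the adult row is blank at the last 3 adult-only peaks.

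The other 9 of the 12 regions with opposite marks at the stages lay on chromosomes 1, 2, 4, 8, 13 and 15. This list was singled out after its values were seen. The highest-scoring of them, on chromosome 13 from 98785503 to 98787507, had a score of 954.91, fetal H3K27me3 over 68.8% and adult H3K27ac over 76.4% of its width. On chromosome 8, from 87124148 to 87125940, a peak with a score of 424.23 had fetal H3K27me3 over its whole width and adult H3K27ac over 96.8%. On chromosome 4, from 129724385 to 129725750, a peak with a score of 301.72 had fetal H3K27me3 over 95.5% and adult H3K27ac over 80.9%. The other 6 had scores from 72.98 to 193.55. Fetal H3K4me1 was listed at 9 of the 12 regions and adult H3K4me1 at 1, against 86.8% and 10.5% of all adult H3K4me3 peaks.

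All of the 8 adult-only peaks with the highest scores overlapped adult H3K27ac, against 76.1% of all adult H3K4me3 peaks and 91.8% of shared peaks with scores from 300 up. Of these 8, 3 overlapped fetal H3K27ac, against 75.4% of all adult H3K4me3 peaks and 88.7% of shared peaks with scores from 300 up. Fetal H3K27me3 overlapped 3 of the 8, against 21.2% and 15.9%. Of these 3, 2 were in the chromosome 17 run and 1 was the peak on chromosome 13 with opposite marks at the stages. Among the top 20, 15 had adult H3K27ac, 6 had fetal H3K27ac and 5 had fetal H3K27me3. Their share with adult H3K27ac was thus near that of all adult H3K4me3 peaks.

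The top peak, also the widest, was on chromosome 17 from 84522267 to 84525953, with a score of 2149.97 and a width of 3687 bp. Adult H3K27ac covered all of it and fetal H3K27ac 67.6%, fetal H3K4me1 covered 87.7%, and a shared H3K4me3 peak began 985 bp away. The second, on chromosome 15 from 85483198 to 85485266, had a score of 1346.5. Adult H3K27ac covered 90.1% of it and no fetal H3K27ac was listed, although fetal H3K4me1 covered 45.7%. The fourth, on chromosome 6 from 124270097 to 124272572, had a score of 1203.86 and a width of 2476 bp. Adult H3K27ac covered 54.2% of it and none of the 3 fetal lists had a peak there, so that the adult lists alone marked this region, 91184 bp from the nearest shared peak.

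Other wide or high-scoring regions with H3K27ac at both stages also had fetal H3K4me1, over 35.7% to 89.5% of their width. On chromosome 9, from 40126042 to 40129291, a peak of 3250 bp with a score of 1040.04 had fetal H3K27ac over 55.7% and adult H3K27ac over 72.2% of its width. On chromosome 6, from 133993133 to 133995463, both H3K27ac lists covered all 2331 bp of a peak with a score of 218.29 that lay 370 bp from a shared one. On chromosome 9, from 110231633 to 110233506, a peak with a score of 833.95 lay 1866 bp from a shared one and had fetal H3K27ac over its whole width and adult H3K27ac over 91.4%.

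Wide regions with H3K27me3 at both stages differed in H3K27ac. On chromosome 2, from 35436853 to 35438794, a peak with a score of 464.54 had H3K27me3 over 100% of its width in the fetal and 88.8% in the adult list, together with adult H3K27ac over 81.4%. On chromosome 6, from 84534592 to 84536372, H3K27me3 covered 100% and 89.7% of a peak with a score of 246.36 that lay 216 bp from a shared one, without H3K27ac. On chromosome 11, from 96153362 to 96155234, the fetal mark covered 100% and the adult mark 17.8% of a peak with a score of 428.0, also without H3K27ac. On chromosome 10, from 58113694 to 58115675, fetal H3K27me3 covered 71.9% of a peak with a score of 197.23, and neither adult H3K27me3 nor H3K27ac of either stage was listed. The fourth widest adult-only peak, 2444 bp on chromosome 18 from 78318703 to 78321146 with a score of 210.94, had fetal H3K27me3 over 26.2% and fetal H3K4me1 over 27.9% of its width and no adult mark beside H3K4me3.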

How the data were processed

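HSCs of 2 stages were profiled by ChIP-seq for 4 histone marks and input. Reads were aligned with Bowtie2 2.2.2 to mm9, per the submitters' processing notes. The 8 deposited lists give each peak's position, a name with the prefix MACS and a score, which is the authors' own value, is at least 50 in every list and has no stated unit. The caller's version and settings, the control and the read depth are not given in the sources used here, so depth sets no interval. Lists titled as combined were taken as 1 call on 2 pooled replicates. The 4 inputs and single replicates were not analysed here.

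Overlap meant at least 1 bp. Shares were computed with exact 95% Clopper-Pearson intervals, distances between edges, and runs by joining adult-only peaks within 50 kb. Quartiles of score were ranked over all adult H3K4me3 peaks of chromosomes 1 to 19. Peaks were named by rule: the 8 highest scores, the 5 widest, the 3 widest of each of 5 mark classes, the 3 farthest from a shared peak, the largest run, and the edges of the rule. The members and lists were chosen with earlier results of these data known. Alternatives varied the overlap, the score threshold, list sizes, merging, chromosomes and windows. Overlap, coverage and distance code was tested in 7 checks on 200 adult H3K4me3 peaks, with 200 of 200 correct in each. Some checks used planted intervals, and the others compared overlaps between the real lists with a pairwise count. The joining of runs was not checked. Python 3.11.15, numpy 2.4.6, pandas 2.3.3, scipy 1.17.1 and matplotlib 3.10.9 were used.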

Additional observations from a re-analysis of the deposited data

Results flagged for a closer look

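The rule for adult-only regions covers chromosomes 1 to 19 alone, so peaks elsewhere enter no comparison. On the X chromosome 26 of 534 adult H3K4me3 peaks had no fetal H3K4me3 peak, or 4.87% (95% Clopper-Pearson interval 3.20 to 7.05), beside 7.30% on chromosomes 1 to 19. On unplaced contigs it was 3 of 24, or 12.5% (2.66 to 32.4), and on chromosome Y none of 3.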

How the results depend on the processing

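No paired analysis was possible because the 2 replicates of a mark share 1 list, and for the same reason none was left out in turn. Leaving out peaks near the largest run, and the ranges of score, were chosen after seeing the data. A value counts as moved when it left its 95% interval. Causes were not tested, except that an alternative with fewer peaks or a stricter overlap lists fewer marks by construction.

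Adult-only peaks were 7.30% of the list. They were 5.89% when a fetal peak within 5 kb counted as shared, with fetal H3K4me1 at 61.3%, no other mark at 26.2%, a median distance of 36.3 kb, 9.67% in runs, and a lowest-quartile difference in fetal H3K4me1, adult-only minus shared, of -18.7 points (-14.4 as reported). They were 7.97% when 50% coverage was needed, with medians of 948 bp and a score of 90.5, and 8.13% with equal numbers of H3K4me3 peaks.

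With the better-scoring part of both H3K4me3 lists, 374 peaks, or 4.63%, counted as adult-only, with medians of 2004 bp and a score of 1801. All but 1 of them overlapped a fetal H3K4me3 peak below the cut, so the values of this setting describe peaks that are shared by the rule. Fetal and adult H3K27ac were at 83.2% and 96.5%, both at 81.6%, fetal H3K4me1 at 87.2%, fetal and adult H3K27me3 at 31.0% and 9.36%, fetal H3K27me3 alone at 21.7% and no other mark at 0.267%. The lowest-quartile differences reversed for fetal H3K27me3, from -21.7 to 19.4 points, and adult H3K27me3, from -19.5 to 6.44 points, and that in fetal H3K4me1 was -3.71. The median distance was 58.4 kb and 4.01% lay in runs. With the better-scoring part of the adult list alone, 0.0124% (1 peak) was adult-only, and no other value was computed.

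With the better-scoring part of the other marks' lists, fetal and adult H3K27ac were at 14.7% and 7.97%, both at 6.19%, fetal and adult H3K4me1 at 47.5% and 4.66%, no other mark at 43.0%, and the difference in adult H3K27me3 was -16.2 points. With equal numbers of the other marks' peaks, fetal H3K27ac was at 26.0%, both stages at 18.9%, fetal H3K4me1 at 19%, no other mark at 38.6%, and the difference in fetal H3K4me1 was -4.09 points.

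With marks over 500 bp, fetal and adult H3K4me1 were at 40.6% and 0.254%, adult H3K27me3 at 8.22%, fetal H3K27me3 alone at 9.83%, no other mark at 33.7%, and the difference in adult H3K27me3 was -12.1 points. With marks over 50% of the peak these were 43.7% and 0.339%, 8.98%, no other mark 32.2%, and differences of -10.4 points in adult H3K27me3 and -6.79 in fetal H3K4me1. With marks within 1 kb, fetal and adult H3K4me1 were at 68.7% and 17.7% and H3K27ac at both stages at 25.2%. At or above the median score of adult-only peaks, adult H3K27ac was at 39.3% and no other mark at 18.8%. The share in runs was 4.58% and 20.3% when joining within 10 and 100 kb, 9.95% after merging adult peaks within 1 kb, and 9.77% for peaks over 5 kb from a shared one.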
